A study of Mus musculus with 13 samples.

Results

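Aquaporins are membrane channels that let water cross cell membranes along an osmotic gradient, and a subgroup of them, the aquaglyceroporins, also passes glycerol. Each channel is built of tandem repeats that meet in the middle of the membrane, and the monomers assemble as tetramers. In the cornea, Aqp1 is known as the water channel of the endothelium and the stromal keratocytes, while Aqp3 and Aqp5 are known from the epithelium. The 6 genes described here were taken by name: the water channels Aqp1, Aqp4 and Aqp5, the aquaglyceroporins Aqp3 and Aqp9, and Aqp11, a distant family member found mainly in the endoplasmic reticulum. They are 6 of the 54232 annotated genes in the table.

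RNA sequencing covered 13 libraries of C57BL/6 mouse cells in 6 groups, which follow fibroblasts on their way to corneal endothelial cells under a chemical treatment whose compounds the labels do not list. D0 (3 libraries) was mouse embryonic fibroblasts of embryonic age E13.5. D7 (3 libraries) and D12 (2 libraries) were labelled as neural crest cells induced chemically from those fibroblasts, by day 7 and day 12. P1 and P8 (2 libraries each) were labelled as corneal endothelial cells induced in the same way (ciCEC), with P1 and P8 left unexplained. The last group, pCEC (1 library), was primary corneal endothelium of mice at postnatal day 30, and it was the only group not derived from fibroblasts. No transgene, knockout or allele is named for any group. Levels are FPKM, that is, fragments scaled to transcript length and library total. This scaling allows comparison between genes and between libraries, but does not correct for differences in RNA composition between libraries. Such differences were large: Ltf stood at 0 in D0 and at 14900 and 40000 FPKM in P1. For Aqp4 the comparison between genes is less sure, as its length in the table fitted 5082 bases against an annotated mean of 1505 bases. Its level, and its share of any sum, is thus uncertain relative to other genes, while the length does not affect comparison between libraries.

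Some libraries went against their labels or stood apart from their group, and this touches every later result. The pCEC library held Krt5 at 676 FPKM, Krt14 at 644 FPKM and Cdh1 at 295 FPKM, which are keratins and a cadherin of epithelia. In the same library Col8a2, a collagen of the endothelial basement membrane, stood at 0.0619 FPKM, and the corneal epithelial keratin Krt12 at 0.0261 FPKM. Cdh2, a cadherin on the corneal endothelial marker list, was at 0.109 FPKM there. It is not particular to endothelium, as D0 fibroblasts held it at 28.8 to 31.2 FPKM. Both P1 libraries and P8 replicate 1 also carried epithelial genes, with Krt5 at 2360 and 2190 FPKM in P1 and at 2380 FPKM in P8 replicate 1. P8 replicate 2 was listed at 0 for Krt5 and Krt14, and instead held the fibroblast genes Col1a1 (1340 FPKM) and Thy1 (702 FPKM) and the macrophage gene Lyz2 (691 FPKM). The P8 libraries correlated with each other at a Spearman rho of only 0.765 across genes, against 0.916 in P1 and at least 0.986 in D0, D7 and D12. These are bulk samples, in which fewer cells of a type and less RNA per cell cannot be told apart.

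The summed level of the 6 genes moved over more than an order of magnitude along the series, and the gene that led the sum changed from stage to stage. The sum was 7.3 to 8.28 FPKM in D0, where Aqp5 held 53.1% to 61.1% of it. In D7 it was 395 to 415 FPKM, with 66.6% to 68.0% from Aqp1 and 29.9% to 31.3% from Aqp5. In D12 it was 453 and 466 FPKM, split between Aqp1 (48.7% and 44.4%) and Aqp5 (48.3% and 52.5%).
In P1 the sum was 108 and 65.8 FPKM and Aqp3 led it, with 86.1% and 58.0%. P8 replicate 1 reached 166 FPKM, of which 98.3% was Aqp3, and P8 replicate 2 reached 16.2 FPKM, of which 82.8% was Aqp1. The pCEC library held 441 FPKM, with 65.8% from Aqp5 and 30.9% from Aqp3, and Aqp1 gave 0.0417% of it.

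**Figure D1:**
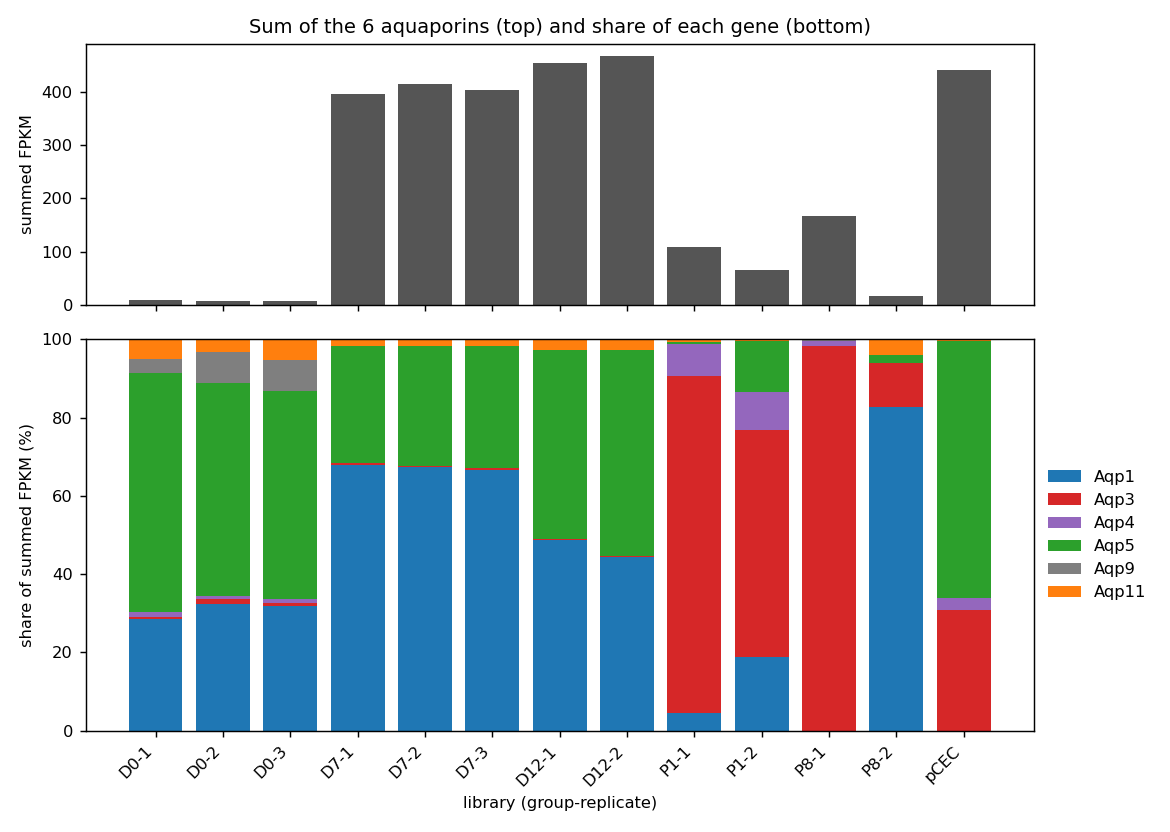
Summed FPKM of the 6 aquaporins in each library (top bars, FPKM) and the share of that sum held by each gene (bottom stacked bars, percent, coloured by gene). The D7 and D12 libraries sum to between 395 and 466 FPKM and are made of Aqp1 and Aqp5, while Aqp3 leads both P1 libraries and P8 replicate 1; Aqp9 is left out of the P1 bars because its P1 values could not be resolved.

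Aqp1 led the sum in D7 and Aqp3 led it in P1, and the 250 bases before the RefSeq start of each (GRCm38.p6) are shown to set these genes of opposite pattern side by side. The Aqp1 window lies on chromosome 6, plus strand, at chr6:55336049-55336298, and the Aqp3 window on chromosome 4, minus strand, at chr4:41098184-41098433. Capitals mark matches, on either strand, to 4 short motifs that do not overlap here. The E-box was searched as CANNTG. The GC box was searched as GGGCGG, which appears as its reverse complement in the Aqp3 window. The TATA box was searched as TATAAA. The AP-1 site was searched as TGANTCA.
Aqp1: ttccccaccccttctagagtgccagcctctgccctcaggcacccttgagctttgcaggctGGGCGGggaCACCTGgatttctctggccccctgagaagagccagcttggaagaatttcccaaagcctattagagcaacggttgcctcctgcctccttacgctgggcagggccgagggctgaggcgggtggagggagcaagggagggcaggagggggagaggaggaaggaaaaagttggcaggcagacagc
Aqp3: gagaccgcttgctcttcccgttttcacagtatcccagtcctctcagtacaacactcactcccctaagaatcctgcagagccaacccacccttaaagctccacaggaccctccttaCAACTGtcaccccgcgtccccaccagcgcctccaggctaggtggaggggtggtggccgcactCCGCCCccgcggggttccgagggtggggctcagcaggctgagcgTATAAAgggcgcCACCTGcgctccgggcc
The Aqp1 window ends at 55336298, short of the annotated gene start at 55336432, so the bases just before that start were not searched. The Aqp3 window adjoins its annotated gene. It held a TATA box whose first base lies at -29 from the start, next to an E-box at -17. The Aqp1 window, as searched, held no TATA box. Both held a GC box, at -190 for Aqp1 and at -73 for Aqp3, and neither held an AP-1 site. Among 32851 RefSeq windows of this length, 66.2% held an E-box, 32.7% a GC box, 12.4% a TATA box and 6.75% an AP-1 site. The windows were 62.0% (Aqp1) and 64% (Aqp3) G and C, against a median of 52.4%. A match is a run of letters and shows no binding.

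Aqp1 (ENSMUSG00000004655, GRCm38 chromosome 6, 55336432 to 55348555, plus strand) is the classic constitutively open water channel. It stood at 2.36, 2.60 and 2.33 FPKM in D0, at 268, 279 and 268 FPKM in D7, and at 221 and 207 FPKM in D12. In P1 it stood at 4.95 and 12.3 FPKM, in P8 at 0.046 and 13.4 FPKM, and in pCEC at 0.184 FPKM. D7 and D12 were thus high in every library and overlapped with no other group, and pCEC lay below all D0 libraries. The P8 values differ 291-fold, and the lower one rests on 2 reads, so no level can be given for P8 as a group. By mean FPKM Aqp1 was the 419th of 17073 tested genes in D7 and the 14621st in pCEC.

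Aqp5 (ENSMUSG00000044217, chromosome 15, 99590782 to 99594829, plus strand) is the water channel of secretory glands and surface epithelia. It stood at 5.06, 4.37 and 3.88 FPKM in D0, at 118, 127 and 126 FPKM in D7, and at 219 and 244 FPKM in D12. In P1 it stood at 0.734 and 8.53 FPKM, in P8 at 0.0477 and 0.321 FPKM, and in pCEC at 290 FPKM. The order of group means was pCEC, D12, D7, P1, D0 and P8, and all neighbours in it were separate except P1 and D0, whose ranges overlapped. The pCEC library held it above every other library, and it ranked 283rd of 17073 genes there. The lowest value, in P8 replicate 1, rests on 1 read.

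Aqp11 (ENSMUSG00000042797, chromosome 7, 97724006 to 97738289, minus strand) shared the first part of this course at a lower level. It stood at 0.418, 0.26 and 0.39 FPKM in D0, at 7.32, 6.91 and 6.53 FPKM in D7, and at 12.5 and 12.8 FPKM in D12. It then lay at 0.612 and 0.402 FPKM in P1, at 0.431 and 0.665 FPKM in P8 and at 1.85 FPKM in pCEC. Its replicates were the closest of the 6 genes in D12, where they differed 1.02-fold, and its D0, P1 and P8 values were under 1 FPKM, with P8 overlapping P1 and P1 overlapping D0.

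Aqp3 (ENSMUSG00000028435, chromosome 4, 41092722 to 41098183, minus strand) passes water and glycerol and is known from the basolateral membrane of epithelia. It stood at 0.0481, 0.115 and 0.0504 FPKM in D0, which rest on 1, 3 and 1 reads. It stood at 1.13, 1.29 and 1.68 FPKM in D7 and at 1.21 and 1.66 FPKM in D12. In P1 it stood at 93.2 and 38.1 FPKM, in P8 at 163 and 1.79 FPKM, and in pCEC at 136 FPKM. The 4 libraries with Krt5 at 676 FPKM or more were the 4 with Aqp3 at 38.1 FPKM or more. P8 replicate 2, with Krt5 listed at 0, lay at the D7 and D12 level, 91.1-fold below its replicate.

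Aqp4 (ENSMUSG00000024411, chromosome 18, 15389496 to 15410982, minus strand) is the water channel of astrocyte endfeet and is also found in some epithelia. It stood at 0.103, 0.0573 and 0.0859 FPKM in D0, at 0.0105, 0.0306 and 0.0433 FPKM in D7, and at 0.0117 and 0 FPKM in D12. In P1 it stood at 8.72 and 6.36 FPKM, in P8 at 2.19 and 0 FPKM, and in pCEC at 12.7 FPKM. No D0, D7 or D12 library held more than 10 reads of it, and P1, P8 replicate 1 and pCEC held 184 to 1339 reads. Where it was at 0, 3 reads would have given 0.0378 FPKM (D12 replicate 2) and 0.0267 FPKM (P8 replicate 2), limits that cover counting error only. An annotated gene, AC133525.2, overlaps it, and the strand of counting is not given in the sources used here, so reads of both cannot be told apart.

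Aqp9 (ENSMUSG00000032204, chromosome 9, 71110659 to 71168682, minus strand) passes glycerol and other small solutes and is known from liver and leukocytes. It stood at 0.292, 0.633 and 0.568 FPKM in D0, from 7, 19 and 13 reads. It was at 0, 0.124 and 0 FPKM in D7, at 0 and 0.256 FPKM in D12, at 0.0484 and 0 FPKM in P8, and listed at 0 in pCEC. Its P1 values could not be resolved: either it was at 0 in both libraries or at most 0.16 FPKM, 2 reads, in 1 of them. With a highest value of 0.633 FPKM it stayed below the 1 FPKM needed for testing, so 5 of the 6 genes were tested. D0 was its highest group, and D0 also held the macrophage list of 10 genes at a summed 1220 to 1300 FPKM, against 8.57 to 14.6 FPKM in D7 and D12. P8 replicate 2 held 9 resolved genes of that list at 918 FPKM with Aqp9 at 0, where 3 reads would have given 0.109 FPKM. The part of macrophage RNA in the Aqp9 level was not tested. The genes Gm47268 and Gm32511 overlap Aqp9.

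**Figure D2:**
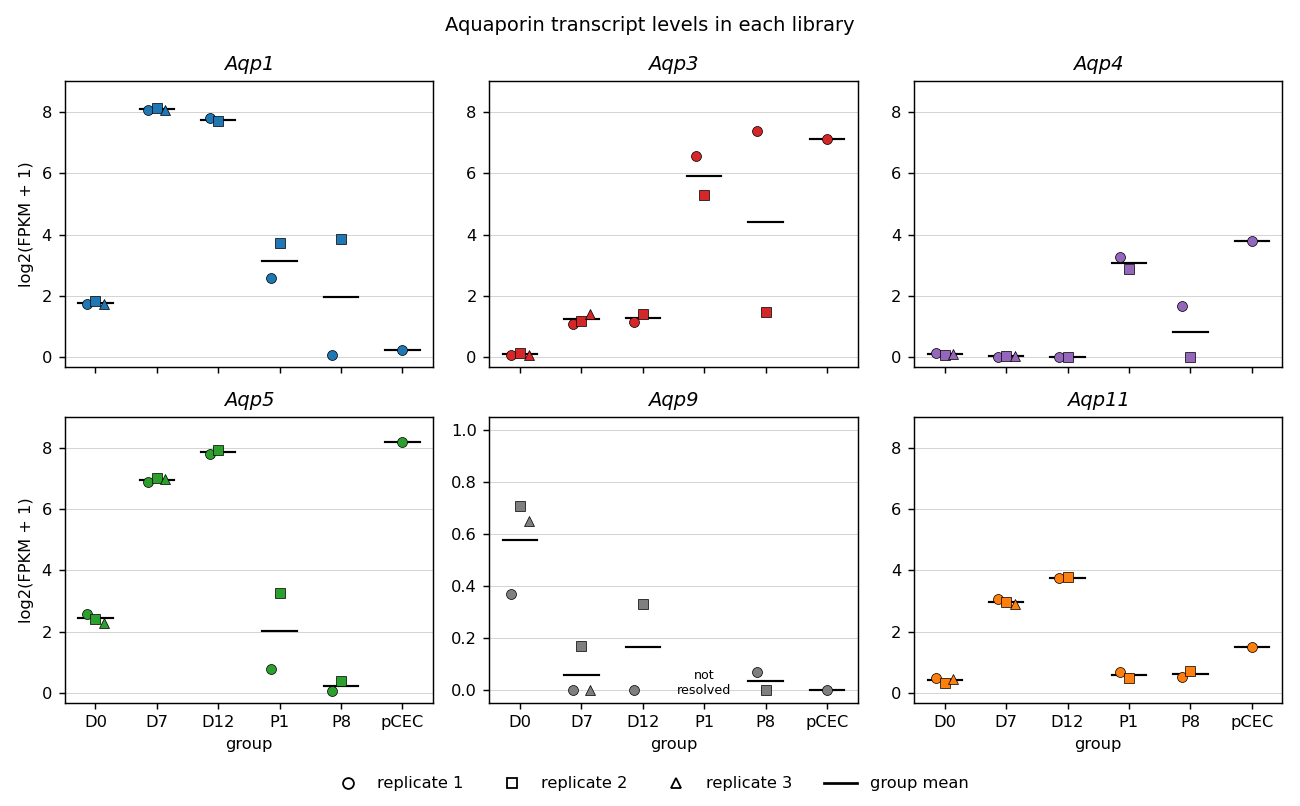
Level of each aquaporin in each library as log2(FPKM + 1) (y axis), by group (x axis); points are libraries, shaped by replicate, and black bars are group means, with a narrower y axis for Aqp9. Aqp1, Aqp5 and Aqp11 are high in D7 and D12, Aqp3 and Aqp4 are high in P1 and pCEC, the P8 libraries lie apart for Aqp1 and Aqp3, and Aqp9 stays at or under 0.633 FPKM.

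The first comparison sets D7, after 7 days of chemical treatment, against D0. The series holds no untreated day 7 cells, so treatment and time in culture cannot be told apart. Aqp1, Aqp5 and Aqp11 rose from D0 to D7, and Aqp3 and Aqp4 did not pass the test. On mean FPKM, Aqp1 was 112-fold higher, Aqp5 27.9-fold and Aqp11 19.4-fold, and for each gene the lowest D7 library lay above the highest D0 library. Differences were tested with limma on log2(FPKM + 1). Calls needed an adjusted p (Benjamini-Hochberg) below 0.05 together with a log2 fold change of 1 or more in size. On this scale, which understates the change of low genes, the log2 fold change was 6.32 ± 0.77 (SE, adjusted p = 0.000316) for Aqp1 and 4.53 ± 0.49 (adjusted p = 0.000161) for Aqp5. It was 2.55 ± 0.14 (adjusted p = 2.84e-06) for Aqp11. The 3 of 5 tested genes called higher compare with 11.2% of all 17073 genes, and none was called lower, against 11.0% (22.2% called in either direction). Ranked by log2 fold change, Aqp1 was the 18th highest of all genes, Aqp5 the 76th and Aqp11 the 391st.

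Marker lists of several cell types moved in the same step. The summed fibroblast list of 8 genes went from between 22300 and 23200 FPKM in D0 to between 3320 and 3340 FPKM in D7. Most of the D0 sum was Col1a1 and Col1a2, at means of 11500 and 5540 FPKM. Pdgfra went the other way, from a mean of 177 to 370 FPKM, as did Dcn, from 107 to 121 FPKM. The other listed fibroblast genes were lower in D7. Of the 8 tested fibroblast genes 3 were called lower, as were 9 of 9 tested macrophage genes, against 11.0% of all genes. The keratocyte list of 5 genes, a cell type that carries Aqp1 in the cornea, went from between 32.7 and 36.5 FPKM to between 113 and 118 FPKM. Within it Angptl7 rose, at 3.36 ± 0.73 (adjusted p = 0.00609), and Lum, which was not among the tested genes, made up most of the sum. The vascular endothelial list of 6 genes, also an Aqp1 cell type, went from between 2.59 and 2.70 FPKM to between 10.9 and 12.6 FPKM. Against 11.2% of all genes called higher, 2 of its 3 tested genes rose. These were the endothelial cadherin Cdh5, by 2.03 ± 0.22 (adjusted p = 0.00015), and the VEGF receptor Kdr, by 1.71 ± 0.21 (adjusted p = 0.000337). On mean FPKM Tek went from 0.181 to 1.03, but Emcn from 0.746 to 0.0269 and Pecam1 from 0.149 to 0.0441. Tie1 stayed at or under 0.0591 FPKM in both groups. The hemoglobin gene Hba-a1, a marker of red cells, was at 0 in D0 and at 2.78 to 2.94 FPKM in D7, and rose by 1.95 ± 0.09 (adjusted p = 8.82e-07). The part of these cell types in the rise of the aquaporins was not tested.

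Aqp3 also lay higher in every D7 library than in any D0 library, but its log2 fold change of 1.14 ± 1.18 gave an adjusted p of 0.494 with a 95% interval of -1.54 to 3.81. That standard error is drawn from all groups, including the P8 libraries that lie 91.1-fold apart. Without P8 replicate 2 the same difference gave an adjusted p of 0.00986, and without P8 replicate 1 it gave 0.00987. Aqp4 differed by -0.07 ± 0.35 (adjusted p = 0.926). Among 6 aquaporin genes outside the set (Mip, Aqp2, Aqp6, Aqp7, Aqp8 and Aqp12), only Aqp8 reached 1 FPKM in a library, among the values that could be resolved (Aqp2 was unresolved in pCEC). Aqp8, known from liver and gut, was at 0 in D0 and at 0.819, 0.872 and 1.49 FPKM in D7, and it rose by 1.03 ± 0.13 on the log2 scale (adjusted p = 0.000358).

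From D7 to D12, no tested aquaporin was called by limma, against 0.363% of all genes (0.217% higher and 0.146% lower), and only Aqp11 had an unadjusted p under 0.05 (0.000642). A count-based fit of the recovered reads (voom) also called 0 of 5. Aqp5 was 1.87-fold and Aqp11 1.82-fold higher on mean FPKM, with no overlap between the groups, and Aqp1 was 1.27-fold lower, also without overlap. On the log2(FPKM + 1) scale Aqp11 differed by 0.79 ± 0.15 (adjusted p = 0.0888) and Aqp5 by 0.90 ± 0.55, with a 95% interval of -0.36 to 2.15. Aqp1 differed by -0.35 ± 0.87, with an interval of -2.31 to 1.62. No alternative made a call, but in several the fold limit alone prevented it. With D7 and D12 fitted by themselves, the adjusted p was 0.0247 for Aqp1, 0.0015 for Aqp5 and 0.00373 for Aqp11. Without a P8 library it was 0.0118 or 0.0121 for Aqp11, and without a P1 library it was 0.0283 or 0.0308 for Aqp5 and 0.0343 or 0.0396 for Aqp11.

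**Figure D3:**
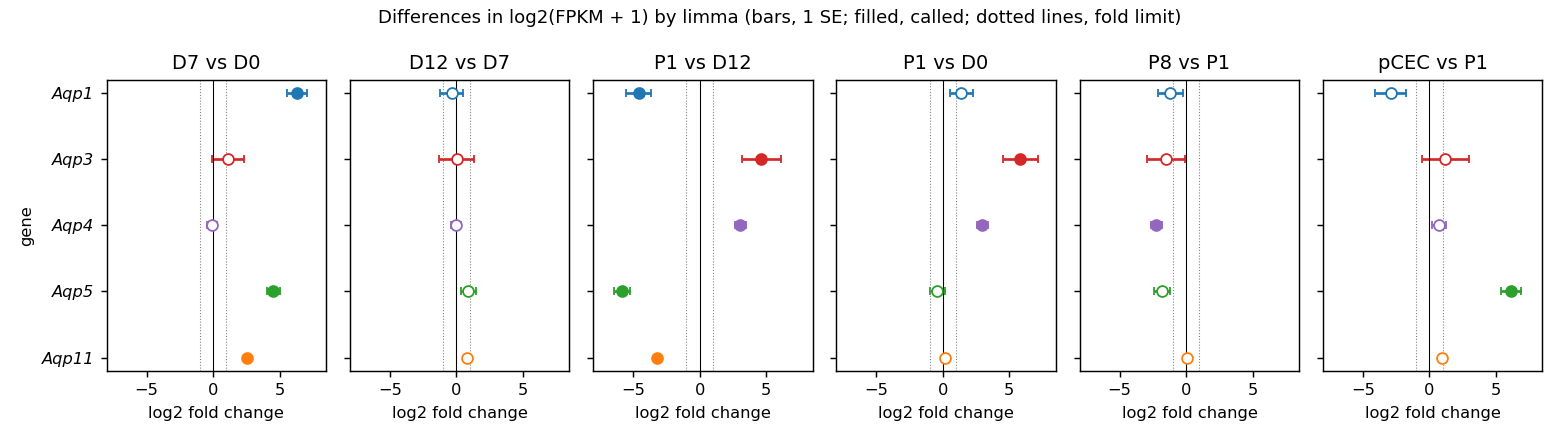
Difference in log2(FPKM + 1) for the 5 tested aquaporins (x axis, log2 fold change; y axis, gene) in 6 comparisons, with bars of 1 SE and filled points where limma called the gene; dotted lines mark a log2 fold change of 1 in either direction. Aqp1, Aqp5 and Aqp11 are filled on the right in D7 against D0 and on the left in P1 against D12, where Aqp3 and Aqp4 are filled on the right.

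The step from D12 to P1 turned the set over, with all 5 tested genes called, against 27.2% of all genes. Aqp1, Aqp5 and Aqp11 fell. On mean FPKM, D12 lay 24.7-fold above P1 for Aqp1, 50.1-fold for Aqp5 and 24.9-fold for Aqp11. The log2 fold changes were -4.59 ± 0.95 (adjusted p = 0.00551), -5.84 ± 0.61 (adjusted p = 0.000161) and -3.18 ± 0.17 (adjusted p = 3.77e-06). These 3 calls compare with 12.5% of all genes called lower, and Aqp5 was the 33rd from the lowest of all 17073 genes. In the same step the vascular endothelial list went from 13.4 and 9.08 FPKM to 0.75 and 0.859 FPKM. Of its 3 tested genes, 2 were called lower, against the same 12.5% of all genes. The keratocyte list stood at 111 and 99.4 FPKM in D12 and at 151 and 104 FPKM in P1. Within it Aldh3a1, also on the corneal epithelial list, went from 3.94 and 3.93 FPKM to 130 and 86.4 FPKM. Lum fell from 69.2 and 61.1 FPKM to 0.778 and 16.8 FPKM. Angptl7 fell from 36.4 and 33.1 FPKM to 19.1 and 0.974 FPKM. The part of these lists in the result was not tested.

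Aqp3 and Aqp4 rose in the same step, 2 of 5 genes against 14.7% of all genes called higher. Aqp3 was 45.9-fold higher on mean FPKM, with a log2 fold change of 4.65 ± 1.44 (adjusted p = 0.0305). Aqp4 had a log2 fold change of 3.07 ± 0.43 (adjusted p = 0.000754), from 1 and 0 reads in D12 to 1001 and 323 reads in P1. The Aqp3 call ended without either D12 library (adjusted p = 0.11 and 0.108), without P1 replicate 1 (0.135) or replicate 2 (0.0521), with no filter on low values (0.0553) and in the voom fit (0.152), while the value stayed between 4.01 and 5.44. The summed basal and simple epithelial list of 9 genes moved with Aqp3 and Aqp4, from 7.71 and 9.58 FPKM in D12 to 8130 and 11900 FPKM in P1, with Epcam listed at 0 there. The neutrophil list of 6 genes went from 130 and 191 FPKM to 14900 and 40000 FPKM, nearly all of it Ltf, a gene also known from secretory epithelia, with Ngp and Elane at 0 in P1. The part of either list in the result was not tested.

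Over the whole course, from D0 to P1, Aqp3 and Aqp4 rose and the other tested genes were not called. The log2 fold change was 5.83 ± 1.32 (adjusted p = 0.0124) for Aqp3 and 2.97 ± 0.39 (adjusted p = 0.00104) for Aqp4, and both genes were higher in both P1 libraries than in any D0 library. The 2 of 5 genes called higher compare with 10.9% of all genes, and none was called lower, against 8.36% (19.2% in either direction). The Aqp3 call ended without P1 replicate 1 (adjusted p = 0.0581) and in the voom fit (0.0518). This comparison and the next 2 share the P1 libraries with the step from D12, so they do not stand apart from it.

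Aqp1 lay at 4.95 and 12.3 FPKM in P1 against at most 2.60 FPKM in D0, and was not called, at 1.38 ± 0.87 (adjusted p = 0.257, interval -0.59 to 3.34). It was called with the same fold change in a fit without P8 replicate 1 (adjusted p = 0.00404) or P8 replicate 2 (0.00413). Aqp5 differed by -0.41 ± 0.55 (adjusted p = 0.607), and this value rests on which P1 library is read. Without P1 replicate 2 it was -1.64 (adjusted p = 0.000686), and without P1 replicate 1 it was 0.82 (adjusted p = 0.00985, under the fold limit). Aqp11 differed by 0.15 ± 0.15 (interval -0.20 to 0.50).

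The P1 replicates were themselves unlike for Aqp5, which stood 11.6-fold higher in replicate 2, and for Aqp1 (2.48-fold higher) and Aqp3 (2.45-fold lower). The same replicate held the summed fibroblast list of 8 genes at 1100 FPKM, against 474 FPKM in replicate 1. It was also the shallowest library, with 9997865 reads. The part of either in these differences was not tested.

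Between P1 and P8, the 2 libraries of P8 lay on opposite sides of P1 for Aqp1 and Aqp3, lay below P1 for Aqp4 and Aqp5, and overlapped P1 for Aqp11. Aqp4 was the 1 gene called lower, at -2.24 ± 0.43 (adjusted p = 0.0338), against 1.10% of all genes called lower, and none was called higher, against 0.445% (1.55% in either direction). Of all called genes 28.8% were higher, and 39.1% under TMM scaling. Both P8 values of Aqp4 lay below both P1 values. The call ended in 13 of 25 alternatives, among them any fit without a D0, D7 or D12 library (adjusted p = 0.0674 to 0.0778), while it held without P8 replicate 2 at -1.41 (adjusted p = 0.00112) and without P8 replicate 1 at -3.08 (adjusted p = 3.56e-06).

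For Aqp1 and Aqp3 the value depended on which P8 library was read. Each of the following fits holds 1 P8 library, which has no replicate there and is assumed to vary like the other groups. In the fit without P8 replicate 2, the library with fibroblast and macrophage genes, Aqp1 was lower than in P1 by -3.09 (adjusted p = 0.00143) and Aqp3 differed by 1.43 (adjusted p = 0.0609). In the fit without P8 replicate 1, Aqp3 was lower by -4.44 (adjusted p = 0.000106) and Aqp1 differed by 0.69 (adjusted p = 0.19). Aqp5 was not called, at -1.79 ± 0.61 (adjusted p = 0.195), although both its P8 values lay below both P1 values. Without P1 replicate 1 it was called, at -3.02 (adjusted p = 3.47e-05), and Aqp11 differed by 0.04 ± 0.17. P8 replicate 2 shared fibroblast and macrophage genes with D0, but its aquaporin values lay outside the D0 range: Aqp1 was at 13.4 FPKM against at most 2.60 FPKM in D0, and Aqp5 at 0.321 FPKM against at least 3.88 FPKM. These values were not tested against each other.

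Against the pCEC library, which has no replicate and is assumed in the fit to vary like the other groups, the clearest gap was in Aqp5. Aqp5 was 62.6-fold higher in pCEC than in P1 on mean FPKM, with a log2 fold change of 6.16 ± 0.74 (adjusted p = 0.00174), the 5th highest of all 17073 genes. It was the 1 gene of 5 called higher, against 1.97% of all genes, and none was called lower, against 0.978% (2.95% in either direction). The gap held without P1 replicate 1 (4.93) and without P1 replicate 2 (7.39), and only the fit of the pCEC and P1 libraries by themselves ended the call (adjusted p = 0.935).

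Aqp1 was 47.0-fold lower in pCEC than the P1 mean, with 10 reads, but its log2 fold change of -2.91 ± 1.16 was not called (adjusted p = 0.243). It was called without P8 replicate 1 (adjusted p = 0.00153) or P8 replicate 2 (0.00157). Aqp3 differed by 1.18 ± 1.77 (interval -2.83 to 5.19) and Aqp4 by 0.70 ± 0.52 (interval -0.49 to 1.88), and neither was called. Aqp11 differed by 0.92 ± 0.20 (adjusted p = 0.0423), just under the fold limit, and passed it without P1 replicate 1 at 1.02 (adjusted p = 0.0111). The corneal epithelial list of 6 genes summed to 3210 FPKM in pCEC, against 6120 and 6550 FPKM in P1. Of its 5 tested genes only Pax6, a transcription factor of the eye surface, was called, and higher, against 1.97% of all genes. Pax6 stood at 18.9 FPKM in pCEC against at most 0.969 FPKM in P1. Aldh3a1, a corneal crystallin, stood at 1640 FPKM against at most 130 FPKM (adjusted p = 0.343), and Krt5, Krt14 and Ehf were lower in pCEC than in both P1 libraries and were not called. The part of this list in the Aqp5 level was not tested.

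**Figure D4:**
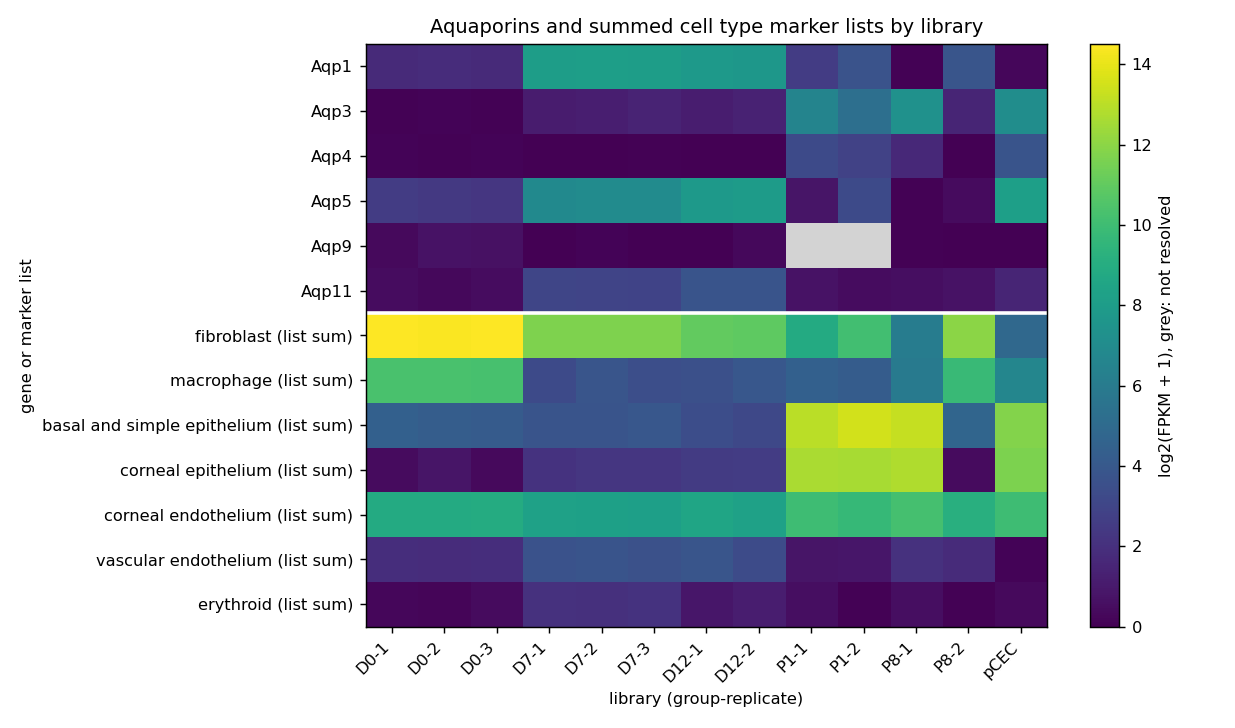
Level of each aquaporin (upper rows) and summed level of each cell type marker list (lower rows) in each library (columns), coloured by log2(FPKM + 1), with grey where a value could not be resolved. Aqp3 and Aqp4 are bright in P1, P8 replicate 1 and pCEC, where the epithelial lists are bright too. P8 replicate 2 shares a bright macrophage row with D0. Its fibroblast sum (4110 FPKM) is closer to D7 (3320 to 3340 FPKM) than to D0 (22300 to 23200 FPKM).

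Genes that work beside aquaporins were read from 4 lists. Of 16 tested genes for ion transport, which builds the gradients that water follows, 8 rose and 0 fell from D0 to P1, where 10.9% of all genes were called higher and 8.36% lower, with a median log2 fold change of 1.75 against 0.04 over all genes. Car2, a cytosolic carbonic anhydrase, rose by 5.61 ± 1.02 (adjusted p = 0.00491), Car12, a membrane carbonic anhydrase, by 2.88 ± 0.45 (adjusted p = 0.00238) and Slc4a4, a sodium bicarbonate cotransporter, by 2.62 ± 0.31 (adjusted p = 0.000567). Slc16a3, a lactate exporter, rose by 2.60 ± 0.32 (adjusted p = 0.000765). From D0 to D7, 5 of the 16 rose and 2 fell, against 11.2% and 11.0% of all genes. From D12 to P1, 7 rose and 1 fell, against 14.7% and 12.5%, and from P1 to P8 0 rose and 1 fell, against 0.445% and 1.10%. Car2 stood at 0.115 to 0.402 FPKM in D0 and at 66.2 to 74.0 FPKM in D7, alongside Aqp1, but at 184 and 19.0 FPKM in P1, where Aqp1 was low.

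Of 7 tested anchors and partners of Aqp4, which hold it at the membrane or act with it, 1 rose and 0 fell from D0 to P1, a count near the 10.9% and 8.36% of all genes. From D12 to P1, 5 rose and 1 fell, against 14.7% and 12.5%. Trpv4, a calcium channel that responds to cell swelling, rose by 3.70 ± 0.72 from D0 to P1 (adjusted p = 0.00672). It stood at 0.521 to 0.688 FPKM in D0, at 24.3 and 16.6 FPKM in P1, at 17.4 and 0.983 FPKM in P8 and at 62.7 FPKM in pCEC. Like Aqp4, it was high in both P1 libraries, P8 replicate 1 and pCEC and low in P8 replicate 2. Kcnj10, the potassium channel found with Aqp4 in glia, stayed at or under 0.28 FPKM in every library.

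Of 7 genes of glycerol handling, the substrate that Aqp3 and Aqp9 carry, 2 rose and 0 fell from D0 to P1, against 10.9% and 8.36% of all genes. Pnpla2, a triglyceride lipase, rose by 1.55 ± 0.26 (adjusted p = 0.00375) and Gpd1, a glycerol phosphate dehydrogenase, by 1.26 ± 0.17 (adjusted p = 0.00116). Of 14 genes of volume and osmotic response, 2 rose and 2 fell from D0 to P1, near the same shares of all genes, with a median log2 fold change of -0.11. The osmolyte transporters Slc5a3, for inositol, and Slc6a12, for betaine, fell by 3.16 ± 0.24 (adjusted p = 5.95e-05) and by 2.43 ± 0.19 (adjusted p = 6.11e-05) on the log2 scale. The 2 that rose were Lrrc8e, a subunit of the volume-regulated anion channel, at 1.22 ± 0.40 (adjusted p = 0.0497), and Akr1b3, aldose reductase, at 1.02 ± 0.27 (adjusted p = 0.0242).

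The genes closest to each aquaporin were ranked by Pearson's r of log2(FPKM + 1) over the 13 libraries, which fall into few groups, so that many genes reach a high r. For Aqp1 they were Sorcs1 (0.987), Hsd11b1 (0.987) and Pdhx (0.986), and for Aqp5 they were Tmem60 (0.956), Ptdss2 (0.952) and 2410006H16Rik (0.951). For Aqp11 they were Tcf24 (0.991), Lrrc57 (0.988) and Nrip3 (0.988). For Aqp3 they were Gm14137 (0.994), Nod2 (0.991) and Glt1d1 (0.988), and for Aqp4 they were Tmie (0.991), Sprr2a1 (0.990) and Gm45756 (0.990). No gene was in more than 1 of these lists.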

How the data were processed

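The authors deposited 1 table of FPKM values for 13 libraries. Per the labels' protocols, Trizol was used for extraction and an Illumina TruSeq kit for the libraries. The submitters' processing notes name Bowtie 0.12.2, mm8 and mm10, and the counter and annotation are not given in the sources used here.

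The gene IDs of the table fit the D0 columns only. Line by line, Spearman's rho was 0.836 to 0.926 within groups but 0.0128 to 0.0941 between groups. The lines of the other groups were therefore matched to genes by an inferred rule: the line order of a hash table with 131072 slots, and whole reads (within 0.001) from FPKM, gene length and library total. The length was the mean GENCODE M21 transcript length, which gave whole reads in D0 for 24182 genes, and was set on D0 for 1113 more, Aqp4 among them (5082 bases, against a GENCODE mean of 1505). That changes the Aqp4 level relative to other genes but not between libraries. With the D0 IDs hidden, 99.85% of the genes placed with all 3 D0 libraries were right, and of the genes at 1 FPKM or more 97.32% were right with 1 library. In runs that treated 20% of the lengths as unchecked, 91.15% to 93.54% of such genes were right. In each group, 96.45% or more of the lines with reads were placed. Each aquaporin other than Aqp9 was placed in all 6 groups with no other possible line. Set aside were 982 genes unresolved in a group and 145 listed at 0 in 1 group but with a mean of 1 FPKM or more in all others.

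Library totals recovered in this way were 9997865 to 24030674 reads, and 12638 to 13506 genes reached 1 FPKM. Genes at 1 FPKM or more in a library (17073) were tested with limma 3.58.1 in R 4.3.3 on log2(FPKM + 1), with 1 mean per group over all 13 libraries, a trended prior and 7 residual degrees of freedom, in 6 comparisons. P-values were adjusted over all genes by Benjamini-Hochberg. The fit was tested on simulated data for D7 against D0 only. That simulation drew every group from the D0 means with 1 spread, so it does not cover the unlike P8 libraries or the single pCEC library. Nothing states that replicates came from separate cultures, so the p-values describe spread among libraries that may be technical. Genes beyond the 6 were named by rule: the 3 highest Pearson correlations to each aquaporin with a group mean of at least 5 FPKM, and up to 4 called genes per list with the largest change from D0 to P1. Cell type markers, Kcnj10 and the genes that overlap an aquaporin were named outside this rule, after their values were seen. The genes, lists and tests were chosen with earlier results of these data known. Promoter windows are from RefSeq (GRCm38.p6). The windows of 2 genes only were printed, as those of Aqp5, Aqp9 and Aqp11 reach into their own annotated gene, which the printed ones do not.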

Additional observations from a re-analysis of the deposited data

How the results depend on the processing

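Each comparison was refitted under 25 alternatives (23 for pCEC against P1): other pseudocounts, filters and scaling, no trended prior, no fold limit, only the groups compared, a replicate block, voom on recovered reads, genes with reads in every group, each library left out, and, chosen after seeing the data, P8 replicate 2 and P1 replicate 2 left out together. No called aquaporin changed direction, and 18 of the 30 fold changes kept their call throughout. The number of aquaporins called stayed at 3 or 4 from D0 to D7, at 0 from D7 to D12 and at 4 or 5 from D12 to P1. From D0 to P1 it was 2, against 1 in the voom fit and 1 to 3 with each library left out. From P1 to P8 it was 1, against 0 with a pseudocount of 0.1, no filter, only these groups, the replicate block or voom, 0 to 2 with each library left out, and 2 without both named libraries. For pCEC against P1 it was 1, against 0 with only these groups, 2 with no fold limit, 1 to 2 with each library left out, and 2 without both named libraries.

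Deviations of same-numbered replicates from their group means correlated at -0.12 to 0.18. Where both groups have 2 libraries, the deviations mirror each other and give 1 value. Such correlations cannot show whether same-numbered libraries came from the same culture, and the main fit did not pair them. Under the replicate block Aqp4 from P1 to P8 had an adjusted p of 0.0792. Over all alternatives, genes called ranged from 2062 to 6998 (3789 as reported) from D0 to D7, from 5 to 179 (62) from D7 to D12, from 2761 to 6986 (4651) from D12 to P1 and from 2020 to 4937 (3282) from D0 to P1. They ranged from 0 to 3780 (264) from P1 to P8 and from 0 to 2281 (504) for pCEC against P1. The cause of these changes was not tested. TMM scaling moved the median of all genes by -0.11 from D12 to P1, and the share of calls that were higher from 54% to 46.1% in that step and from 28.8% to 39.1% from P1 to P8. Depth limits every value resting on few reads, Aqp9 throughout, and Aqp3 and Aqp4 in D0.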
